A study of Mus musculus with 4 samples.

Results

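CG methylation was higher in the Nsd1 conditional knockout cortex than in control at 221 autosomal regions outside protein-coding genes, out of 101350 regions of differential methylation that the authors listed. They were chosen by a rule: a CG region on an autosome, with a higher mean level in the knockout, sharing no base with a protein-coding gene (RefSeq, build GRCm38.p6, which is mm10). Such regions are called gains here, and those lower in the knockout losses. The members were selected on the 2 group means, so the size and direction of the gains are given as a description, with no test.

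Whole-genome bisulfite sequencing had been done on somatosensory cortex of mice aged 2.5 months, with 2 libraries of genotype Nsd1Nex-cKO (cKO) and 2 control libraries of genotype Nsd1fl/+. The labels do not say whether the control mice carried the Nex driver, nor whether replicates were separate animals, and no other allele or treatment is named. Nex is another name of Neurod6, a gene of excitatory cortical neurons, so the dissected tissue also holds cells that keep NSD1, and a change in a cell type's share cannot be told apart from a change within cells. The file gives 1 mean per group and region, so there is no value per library, no spread between libraries and no depth. All intervals below cover the counting of regions only, at 95% (exact Clopper-Pearson for shares, order statistics for medians). No marker of the tissue could be checked in a list of methylation regions.

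NSD1 is a histone methyltransferase that makes the mark H3K36me2, which is spread over gene bodies and intergenic chromatin. The related mark H3K36me3 is laid down by SETD2 behind transcribing RNA polymerase II and is densest towards the 3′ part of active genes. The DNA methyltransferases DNMT3A and DNMT3B carry a PWWP domain that binds these marks, and DNMT3A is the main de novo enzyme of maturing neurons. CpG-rich promoters are usually unmethylated in any tissue, while CpG-poor intergenic DNA is usually highly methylated.

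Of the 30734 autosomal CG regions listed outside protein-coding genes, the 221 gains were 0.719%, beside 2367 of 16098 (14.7%) inside such genes and 5.53% of all 46832 autosomal CG regions. Since the direction chose the members, nothing is read from that share. The other 30513 regions outside genes were losses. The 221 gains together covered 25.7 kb, and their lengths ran from 51 to 630 bp with a median of 87 bp. They were found on 18 of the 19 autosomes, with 31 on chromosome 11, 21 on chromosome 9 and 0 on chromosome 19, where 690 losses outside genes were listed. The smallest gain was 7.60 points, near Pgbd5, and the loss outside genes closest to 0 was -4.66 points. At the border of the gene rule, the outermost gain kept as intergenic lay 5 bp from Rybp, and the gain inside a gene with the least overlap shared 7 bp with Lhfpl4 (6.74% in control, 15.0% in cKO).

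Sequences are shown first for the gains that fall in or beside an annotated start site or a microRNA hairpin, since these are the sites where the position of a gain can be read against a known element. Only 2 of the 221 regions overlapped a promoter window (300 bases around a start, from RefSeq, GRCm38.p6), in a table that is not complete. The first lay wholly in the window of Wsb2, which encodes a SOCS box protein (chr5:117357055-117357354, plus strand). The 55 capitals mark the region with the gain:
Wsb2: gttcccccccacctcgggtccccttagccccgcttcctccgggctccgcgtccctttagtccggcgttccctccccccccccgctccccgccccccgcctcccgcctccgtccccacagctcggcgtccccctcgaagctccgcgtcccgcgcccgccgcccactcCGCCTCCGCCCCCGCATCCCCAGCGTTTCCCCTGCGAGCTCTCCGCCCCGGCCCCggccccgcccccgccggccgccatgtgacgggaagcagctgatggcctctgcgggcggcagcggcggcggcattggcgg

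This window holds 40 CG dinucleotides, a number reached by 4.05% of all 31396 autosomal windows (median 7), and 7 of the 40 lie in capitals. The gain there went from 15.1% in control to 44.8% in cKO. Its deposited number of CpG cytosines was 8, fewer than the capitals hold on both strands. The second region covered the last 22 bases of the window of the long noncoding RNA Gm10466 (chr11:24730673-24730972, minus strand), again in capitals:
Gm10466: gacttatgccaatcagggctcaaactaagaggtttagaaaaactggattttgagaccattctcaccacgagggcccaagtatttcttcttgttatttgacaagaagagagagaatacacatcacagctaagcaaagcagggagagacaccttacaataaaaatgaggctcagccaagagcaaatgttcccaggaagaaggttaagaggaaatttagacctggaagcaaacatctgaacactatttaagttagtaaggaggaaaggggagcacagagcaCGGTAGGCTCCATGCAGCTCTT

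That window holds 2 CG dinucleotides, a number reached by 86.2% of the windows, and the region went from 44.2% in control to 85.3% in cKO over 4 CpG cytosines. The pair shows 2 kinds of site met among the 221 regions, a CpG-rich start with low control methylation and a CpG-poor site at an intermediate level.

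Within 5 kb of a microRNA hairpin lay 3 of the regions, at 4 hairpins. Losses this close to a hairpin were not counted. Whether gains are more frequent there than losses can therefore not be read from these 3 regions. One began 2 bp downstream of the Mir181b-1 hairpin and 179 bp downstream of Mir181a-1 (chromosome 1, 137966720 to 137966792), with 39.5% in control and 67.4% in cKO over 12 CpG cytosines. One lay 414 bp upstream of Mir196b, between Hox genes (chromosome 6, 52230579 to 52230689), with 17.96% and 49.3% over 22 CpG cytosines. One lay 4.57 kb downstream of Mir9-3 in its host transcript Mir9-3hg (chromosome 7, 79509925 to 79509983), with 16.7% and 35.2% over 8 CpG cytosines. The mature 5p arms follow, with the seed (bases 2 to 8) in capitals:
miR-181a-5p: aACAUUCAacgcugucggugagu
miR-181b-5p: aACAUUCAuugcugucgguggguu
miR-196b-5p: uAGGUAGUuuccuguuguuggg
miR-9-5p: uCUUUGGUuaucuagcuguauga

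The neighbouring miR-181a and miR-181b share a seed, and the same region lies behind both hairpins. The miR-9 family is abundant in brain, and miR-196 genes sit in the Hox clusters. Levels of these microRNAs were not measured here.

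Most gains started from an intermediate level and ended high. The median was 50.7% in control (interval 47.5% to 53.3%, quartiles 34.9% and 61.2%) and 80.4% in cKO (77.3% to 83.0%), with a median difference of 24.6 points (23.7 to 26.4). Gains inside protein-coding genes had medians of 51.2% and 77.9% and a difference of 24.2 points, so both sets of gains had like levels. Losses outside genes had medians of 76.3% in control and 42.3% in cKO. By control level, 25 of the 221 gains were under 20%, 135 between 20% and 60%, and 61 at 60% or over. The typical gain sat below the typical intergenic loss region in control and above it in cKO. The sign of the difference divides gains from losses, so part of this contrast follows from the rule.

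**Figure D1:**
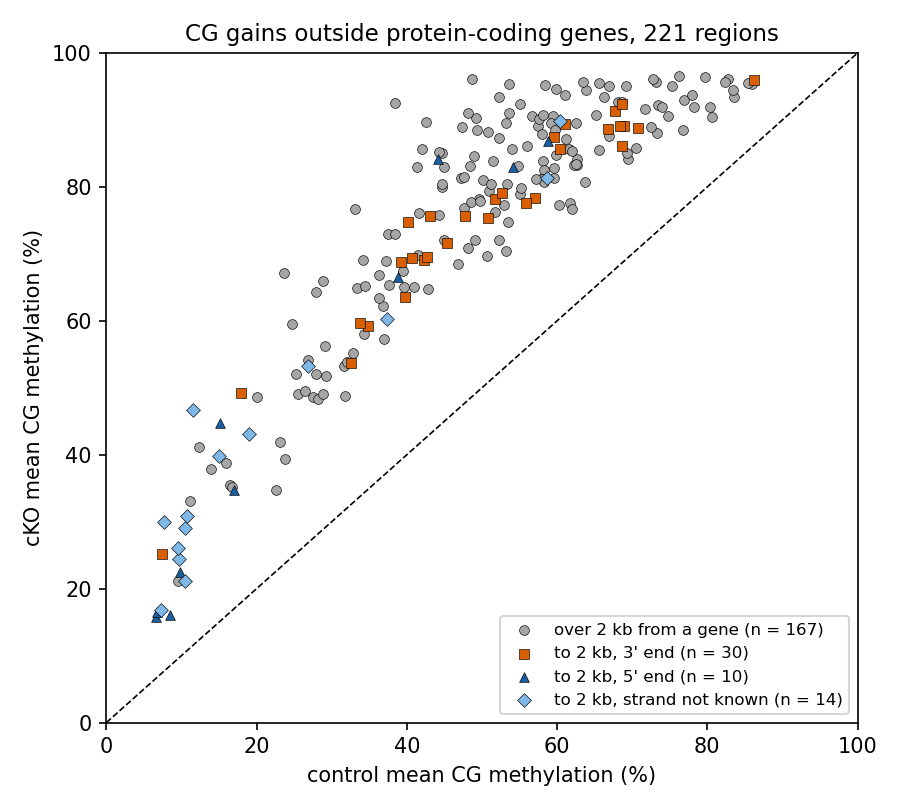
Mean CG methylation in control (x axis, %) against cKO (y axis, %) for each of the 221 CG gains outside protein-coding genes, 1 point per region. Markers show the distance to the nearest protein-coding gene and, to 2 kb, which end of that gene is nearer. The dashed line marks equal levels. All points lie above the line by the rule, and low control levels gather among regions near 5′ ends and genes of unknown strand.

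Both ends of this range are shown by the 3 lowest and the 3 highest control levels. The lowest control levels were 6.61% near Nell1 (15.8% in cKO), 6.76% near Il13, an interleukin gene (16.6%), and 7.29% near Rtn4rl1, a gene of the Nogo receptor family (16.8%). These 3 lay 449, 1554 and 131 bp from their genes. The highest control levels were 86.2% near Ptn, which encodes the growth factor pleiotrophin (95.9% in cKO), 85.9% near Galnt7 (95.4%) and 85.5% near Ascc3 (95.5%). These regions lay 969 bp, 23.1 kb and 229 kb from their genes. At these high starting levels the gains were at most 10.01 points.

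The regions were denser in CpGs than losses in the same compartment. Density is given as CpG cytosines on both strands per 100 bp. Its median was 11 in the 221 gains (interval 10 to 12.3), 10.98 in gains inside genes (10.7 to 11.2) and 6.94 in losses outside genes (6.90 to 6.99). At 20 or more per 100 bp stood 27 gains (12.2%, 8.21% to 17.3%), against 142 of 30513 losses outside genes (0.465%). At under 6 stood 28 gains (12.7%) against 37.4% of those losses. Among these 28 the median difference was 34.6 points, and among the 27 densest it was 19.7 points. Across the 221 regions density and the difference had a Spearman rho of -0.50, a description over regions that share their libraries. Gains inside genes had a rho of -0.53. In losses outside genes, where differences are negative, it was 0.52, so denser losses were also smaller. The relation is therefore not particular to gains.

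**Figure D2:**
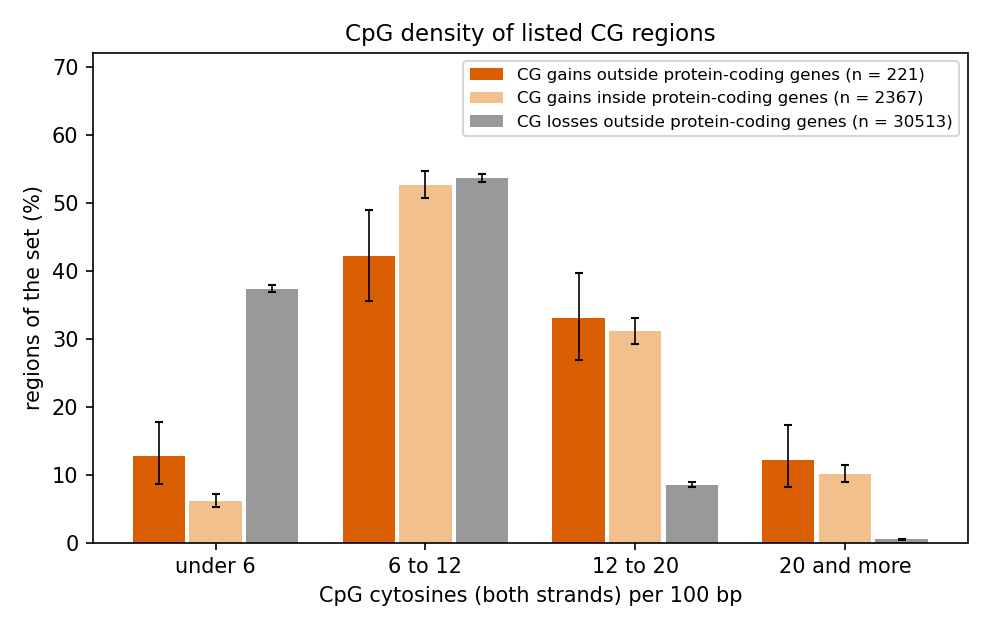
Share of regions (y axis, %) by number of CpG cytosines on both strands per 100 bp (x axis) in 3 sets of autosomal CG regions: gains outside and inside protein-coding genes, and losses outside them. Whiskers are exact 95% binomial intervals over regions. Both sets of gains reach 10.1% or more in the densest class, where the losses hold 0.465%.

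The densest regions were Xylt1 (40.7 CpG cytosines per 100 bp, 43 bp from this proteoglycan xylosyltransferase gene), Pgbd5 (36.3, at 369 bp), one 158 kb from the chemokine receptor gene Cxcr4 (35.4) and one 46 bp from Zfp703 (34.5). Xylt1 went from 10.4% to 21.2%, Pgbd5 from 8.53% to 16.1% and Zfp703 from 10.7% to 30.9%, while the region far from Cxcr4 went from 75.3% to 95.02%. The sparsest regions had 0.635 to 1.45 CpG cytosines per 100 bp, and all 4 lay over 100 kb from a protein-coding gene. The sparsest, 630 bp long with 4 CpG cytosines, went from 42.6% to 89.7% and lay 335 kb from Meis1. It was also the longest, followed by the region near Rps12 (490 bp), one in the long noncoding RNA Gm31674 (476 bp, 62.0% to 85.3%) and one in Gm40419 (470 bp, 48.4% to 83.1%).

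More of the gains than of the losses outside genes lay within 2 kb of a protein-coding gene. The median distance to the nearest protein-coding gene end was 23.1 kb (interval 15.4 to 40.1 kb), against 51.1 kb for the losses (50.04 to 52.3 kb). Within 2 kb lay 54 of the 221 gains (24.4%, 18.9% to 30.6%) and 1424 of 30513 losses (4.67%, 4.43% to 4.91%). Beyond 2 kb the medians were 52.2 kb for 167 gains and 56.4 kb for 29089 losses. With at least 10 CpG cytosines the median of the gains was 12.6 kb. A further 29 gains lay at 2 to 10 kb, 76 at 10 to 100 kb and 62 beyond 100 kb. Among all CG regions listed outside genes, gains made up 3.65% within 2 kb, 0.729% at 2 to 10 kb, 0.510% at 10 to 100 kb and 0.598% beyond. The direction that chose the regions enters these shares, and the distance does not.

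Close to genes, gains lay mostly beyond 3′ ends and losses mostly before 5′ ends. Strand was known for the nearest gene of 171 of the 221 gains. Within 2 kb, 30 of 40 gains with known strand were nearest to a 3′ end (75%, interval 58.8% to 87.3%), against 277 of 1084 losses (25.6%, 23.0% to 28.3%). For 14 gains and 340 losses within 2 kb the strand was not known. If all of these faced by one end, the 3′ share would run from 55.6% to 81.5% of gains and from 19.5% to 43.3% of losses, so the ranges stay apart. Of 307 CG regions listed within 2 kb of a 3′ end, 9.77% were gains (6.69% to 13.7%), beside 1.22% of 817 within 2 kb of a 5′ end (0.588% to 2.24%). At 10 to 100 kb both ends had 0.51% and 0.50%.

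**Figure D3:**
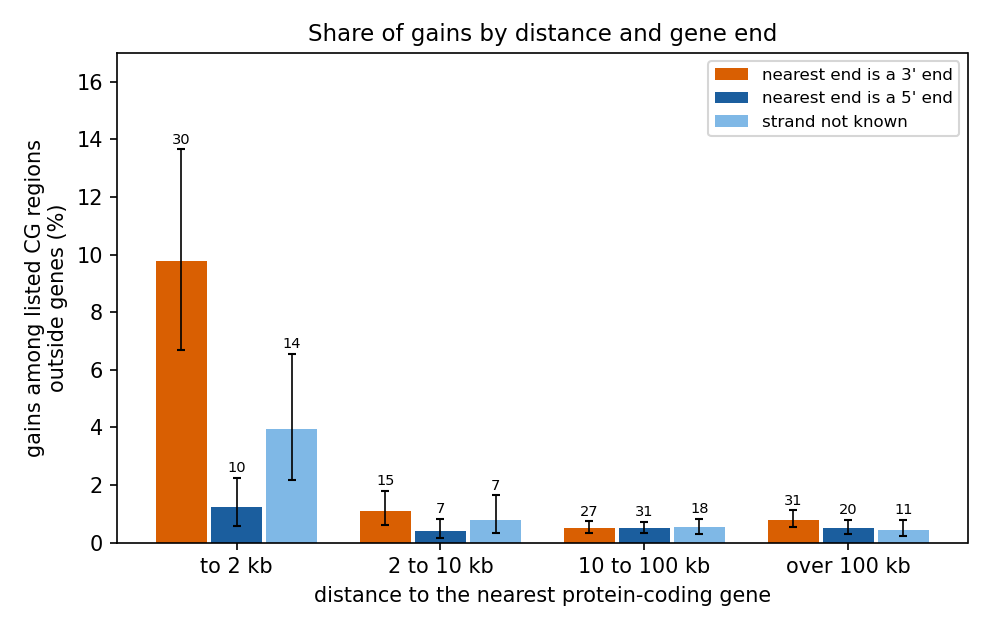
Share of gains among all autosomal CG regions listed outside protein-coding genes (y axis, %) by distance to the nearest such gene (x axis) and by which end of it is nearer. Whiskers are exact 95% binomial intervals over regions and numbers above them count gains. The bar for 3′ ends within 2 kb, with 30 gains, stands at 9.77%, and the bars beyond 10 kb all stand under 1%.

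Regions just past a 3′ end began at intermediate levels. For the 30 within 2 kb of a 3′ end the control median was 51.3% and the cKO median 76.7%, with 9.81 CpG cytosines per 100 bp, and 2 of them were under 20% in control. Examples are Abhd11 (34.9% to 59.2%, 7 bp past the gene and inside the antisense transcript Abhd11os), Nfkbia, the inhibitor of NF-κB (33.7% to 59.6%, at 9 bp), and Edem2, which acts in the disposal of misfolded glycoproteins (57.1% to 78.3%, at 11 bp).

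Regions just before a 5′ end mostly began low. For the 10 within 2 kb of a 5′ end the control median was 16.0% and the cKO median 39.7%, with 15.46 CpG cytosines per 100 bp. Of these 10, 6 were under 20% in control, and the highest control level was 58.7%, near Sh2d4b. The 14 near a gene of unknown strand had medians of 11.1% and 35.4% and a density of 23.1, and 10 were under 20%. Within 2 kb lay 18 of the 25 gains that began under 20%. Among them were Rybp, a subunit of a variant Polycomb complex (10.4% to 29.0%), Atn1, a transcriptional corepressor (9.51% to 26.1% over 61 CpG cytosines), and Skil, a repressor of TGF-β signalling (chromosome 3, 31094623 to 31095020). Skil held the largest area statistic of all 221, going from 9.65% to 24.4% over 132 CpG cytosines. Each of these 3 regions stayed under 30% in cKO. The strand of Rybp, Atn1 and Skil was not known here, so they are not among the 10 at a 5′ end.

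Large area statistics were also found away from protein-coding genes. By the authors' area statistic, a score summed over a region's cytosines and used here for ranking alone, Skil was followed by a region 58.3 kb from the ribosomal protein gene Rps12 (chromosome 10, 23726352 to 23726841). That region went from 69.1% to 95.05% over 63 CpG cytosines. A region 32.1 kb from Phb, which encodes prohibitin, went from 11.1% to 33.0%, and one 239 kb from Podxl from 50.1% to 81.0%. Cdkn1c (26.8% to 53.2%, at 281 bp), the mitochondrial kinase gene Pink1 (38.9% to 66.6%, at 1214 bp) and a region 169 kb from the corepressor gene Tle3 (55.1% to 92.4%) completed the first 8 with Atn1. Of these 8, 4 lay within 2 kb of a protein-coding gene and 4 at over 30 kb. Counting noncoding genes too, the region near Phb lay 107 bp from a gene, those near Tle3 and Podxl 3840 and 3914 bp, and that near Rps12 14865 bp.

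The largest differences over at least 10 CpG cytosines lay away from starts. A region 208 kb from Plk2, a polo-like kinase gene, went from 23.7% to 67.1% (43.4 points). One of 3 regions 240 kb from Podxl went from 41.3% to 83.0%, and one 492 kb from Cntnap5a from 47.3% to 88.9%. A pair of regions 3.05 and 3.53 kb past the 3′ end of Adss, an enzyme gene of purine synthesis, went from 44.9% to 83.0% and from 44.7% to 85.1%. The region farthest from a protein-coding gene was 569 kb from Akr1e1 (62.6% to 89.5%), followed by those near Bcl11a (557 kb), B020011L13Rik (516 kb), Csmd3 (507 kb) and Cntnap5a. With noncoding genes counted, the region near Akr1e1 lay 11581 bp from a gene, and the one near Cntnap5a, at 313105 bp, was the farthest of the 221.

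Among genes of cortical projection neuron identity, 6 of the 36 found in the annotation were the nearest gene of a gain, with 10 regions in all. Over all 20560 protein-coding genes, 0.924% were the nearest gene of a gain. Of the 507 CG regions listed outside genes with one of the 36 nearest, 1.97% were gains, beside 0.719% of all such regions, and neither difference was tested. Zbtb18, a zinc finger repressor of cortical neuron development, had 3 regions within 1.37 kb, from 2.64 kb past its 3′ end (chromosome 1, 177453400 to 177454773), at 37.5%, 44.6% and 57.4% in control and 73.0%, 79.9% and 89.2% in cKO. A region at 10.7 kb from Nfib lay in Gm11266 (58.2% to 83.9%) and one at 10.2 kb from Bcl11a in A830031A19Rik (49.8% to 77.9%). Of the 10, 4 lay within 10 kb of their gene, and the regions of Mef2c (368 kb) and one each of Pou3f3 (441 kb) and Bcl11a were far away.

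Of 38 imprinted genes in the annotation, 4 were met by 3 regions, and the region in Meg3 counts for both Meg3 and Rtl1. Of the 31 protein-coding ones, 3 (9.68%) were nearest to a gain, beside 0.924% of all protein-coding genes. With a listed gene nearest there were also 63 losses, so gains were 4.55% of 66 regions, beside the 0.719% over all. These shares rest on 3 regions, and neither difference was tested. The gain beside Cdkn1c, a maternally expressed inhibitor of cyclin-dependent kinases, is given above. Plagl1, a zinc finger gene, had a region 2.27 kb past its 3′ end (34.2% to 69.0%). A region inside Meg3, a maternally expressed long noncoding RNA, went from 29.0% to 56.2% over 14 CpG cytosines, and its nearest protein-coding gene was Rtl1. The table does not separate the parental alleles. Of 43 synapse, adhesion and channel genes 2 were nearest to a gain, Adgrl2 and Cntnap5a, both at over 200 kb, and gains were 0.752% of the 266 regions nearest to the list. Activity-regulated genes (0 of 30) and DNA methylation or H3K36 enzyme genes (0 of 22) were nearest to no gain. Only 154 and 39 CG regions had them nearest, too few at a share of 0.719% to read anything from a count of 0. The members of these lists were not matched on length or on the size of their flanks.

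Noncoding genes were overlapped by 51 of the 221 gains (23.1%, interval 17.7% to 29.2%) and by 19.8% of losses outside protein-coding genes (19.3% to 20.2%), so the intervals overlap. These 51 touched 50 noncoding genes. A long noncoding RNA was touched by 41 gains, a pseudogene by 8, a miscellaneous RNA by 2 and a transcribed pseudogene by 1. The largest area statistics were in Gm52861, a transcript next to Gm40363 with a pair of regions (14.9% to 39.9% and 12.3% to 41.1%), the pair of overlapping models Gm46094 and Gm5829 (73.3% to 88.0%), Gm14121 (23.8% to 39.4%), Abhd11os and Gm31881 (37.4% to 60.3%). The pseudogene Ppp1r2-ps1 (59.6% to 81.3%) and Gm52902 at the Mir196b site completed the 8. Pseudogenes share sequence with their parent genes, and how reads mapping to several places were treated is not given in the sources used here. Pantr1, the noncoding neighbour of the neuronal factor gene Pou3f3, held a gain from 66.9% to 95.1%. The 170 gains outside every gene lay at a median of 5.58 kb from the nearest gene of any kind, against 14.1 kb for losses.

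Neighbouring regions differed between gains and losses. Within 10 kb of the 221 gains, 15 of 108 distinct CHH regions outside protein-coding genes were higher in cKO (13.9%, interval 7.99% to 21.9%). CHH sites are cytosines with no G at either of the next 2 positions. Within 10 kb of losses this share was 129 of 17967 (0.718%), and over all 34165 CHH regions outside genes on autosomes it was 2.06%. The other 93 CHH regions near gains were lower in cKO, so CHH losses were still the majority there. Distance to genes was not matched between gains and losses, and its part in this difference was not tested. A CHH region overlapped 2 of the gains directly. Near Bahcc1, a chromatin protein gene, the CHH level was 2.66% in control and 8.97% in cKO, and near Uaca it was 3.88% and 0.713%. Within 1 kb of 14 gains lay another gain outside genes, and within 1 kb of 7 a loss. Within 10 kb, 23 gains had another gain (10.4%) and 78 a loss (35.3%), while 64.9% of losses had another loss and 0.419% a gain.

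The bodies of the flanked genes were counted next. Of the 78 protein-coding genes nearest to a gain within 10 kb, 26 held at least 1 CG gain in the body (33.3%, interval 23.1% to 44.9%) and 13 at least 1 CG loss. Of the 3488 genes nearest to a loss within 10 kb, 434 held a gain (12.4%, 11.4% to 13.6%) and 1407 a loss (40.3%). Csrnp3 had 5 gains in the body with 0 losses, and Smarca4, a chromatin remodelling ATPase gene, 3 with 0. Other flanked genes went the opposite way, with 0 gains and 24 losses in Auts2 and 0 and 7 in Arl15. Csrnp3, Smarca4, Auts2 and Arl15 were singled out after their values were seen. The share over all protein-coding genes is not given here, so 33.3% is set only beside genes chosen by the opposite direction. A gene could be in both sets. Longer genes have more room for regions, and length was not matched.

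Most gains stood alone, and 40 of the 221 formed 16 runs with no more than 100 kb from one to the next. The gains fell into 189 of the 18499 stretches between protein-coding genes, and 173 of these stretches held a single gain. In 54 stretches no CG loss was listed, and in 113 losses outnumbered gains. The stretch between Etaa1, an activator of the kinase ATR, and Meis1, a homeobox gene, held 13 (chromosome 11, 17953876 to 18880427, 927 kb), and the next stretches held 3 each. The stretch was singled out after its values were seen. It also holds 3 of the 5 runs of at least 3 gains, the others being those at Zbtb18 and Podxl.

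The 13 gains between Etaa1 and Meis1 had like levels and few cytosines. Control levels ran from 41.6% to 76.2% with a median of 53.6%, and cKO levels from 76.1% to 96.6% with a median of 91.0%. Their median difference was 36.9 points and their median density 5.33 CpG cytosines per 100 bp, against 24.3 points and 11.5 in the other 208 gains. The 28 gains under 6 per 100 bp had medians of 34.6 points and 88.2% in cKO. Part of these 28 lie in this stretch and medians without them were not computed, so the 2 sets are not independent. Each of the 13 gains in the stretch rests on 4 to 9 CpG cytosines. A difference in DNA sequence between the mice can alter a bisulfite level, and whether they differ in this stretch or elsewhere was not tested. The same stretch held 8 CG losses (median 74.7% in control, 39.6% in cKO) and 18 CHH regions, all lower in cKO, with medians of 5.74% and 0.936%. In CHH this stretch therefore went with the intergenic majority, while 13 of its 21 CG regions went against it. On the other side of Etaa1, towards C1d, 2 more gains and 10 losses were listed. These 2 gains had like levels (52.3% to 87.3% and 56.7% to 90.6%). Without the 13 regions the median distance of the gains was 17.9 kb and the median control level 49.7%.

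**Figure D4:**
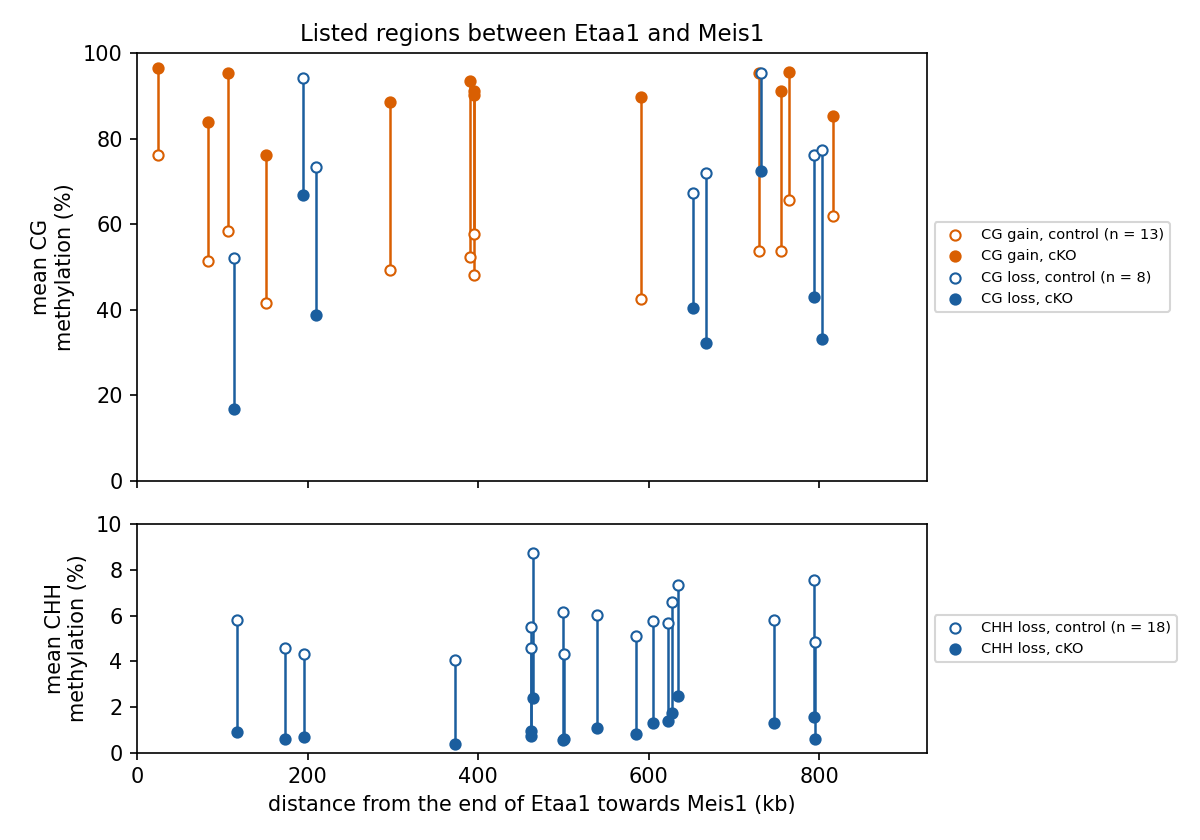
Mean methylation (y axes, %) of the listed regions between Etaa1 and Meis1 by distance from the end of Etaa1 (x axis, kb). The upper panel shows the 13 CG gains and 8 CG losses and the lower panel the 18 CHH losses, with open points for control, filled points for cKO and a line joining both. Most gains run from near 50% to near 90%, and all CHH levels are lower in cKO.

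Other stretches with 3 gains differed in their CHH regions. Between Arpp21, which encodes a neuronal phosphoprotein, and Pdcd6ip, 3 gains (50.9% to 79.3%) stood beside 14 CG losses and 17 CHH regions that were higher in cKO (median 1.39% in control, 5.49% in cKO), with 5 lower. Between Thap1 and Zfp703, all 49 CHH regions were lower, beside 3 CG gains and 49 CG losses. These stretches were singled out after their values were seen. Over all stretches with a gain, 84 of 2204 CHH regions were higher (3.81%, interval 3.05% to 4.70%), against 1.94% of 31961 in the other stretches. Of the 84, 17 lay between Arpp21 and Pdcd6ip. The interval takes no account of such grouping by stretch.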

How the data were processed

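Bisulfite libraries came from 2 cKO and 2 control samples. CASAVA, Bowtie2 and the build mm10 are named, without roles, per the submitters' processing notes. Not given in the sources used here: the region caller, its thresholds, coverage filters and the use of replicates. Per the file headers, the authors deposited a mean methylation fraction per group (printed as a percent), a difference, a length, a cytosine number and an area statistic, a score used here for ranking only. Differences printed here are cKO minus control, computed from the deposited fractions. No filter on low values was applied.

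For 203 CG regions inside promoter windows, the deposited cytosine number equalled the CpG cytosines of both strands in 194 and was lower in 9. It therefore counts cytosines, not CpG pairs, and all 203 began and ended in a CpG with positions counted from 1.

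Genes were those of RefSeq on GRCm38.p6 (20560 protein-coding and 26154 other autosomal genes). Those listed in the first 3 Mb of a chromosome, which is gap sequence, were left out. Overlap meant at least 1 shared bp, and distance ran between facing edges. Strand came from the promoter table and was known for 16457 protein-coding genes. No genome sequence was used here, so islands and repeats were not analysed. Overlap and distance were tested on simulated data (3000 regions, 400 genes, 0 errors). Python 3.11.15, pandas 2.3.3 and scipy 1.17.1 were used.

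The members, gene lists and rule were chosen with earlier results of these data known. The rule named the 8 largest area statistics, overall and among regions in noncoding genes. It also named the 5 largest differences over 10 cytosines, the 5 nearest and 5 farthest, the 4 longest, densest and sparsest, the 3 lowest and highest control levels, runs of 3 or more, and regions of the lists. Of the list of 26 long noncoding RNAs in the annotation, 2 (Meg3 and Pantr1) held a gain. Meg3 is also in the list of imprinted genes. Over all 26154 noncoding genes, 50 were touched by a gain, and the difference was not tested. Some regions that this rule names are not reported here.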

Additional observations from a re-analysis of the deposited data

How the results depend on the processing

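Of 83 recomputed values, 64 stayed within the interval of the reported one (for the count, within 1.5 times), and 19 moved. Counting curated mRNAs only, the midpoint rules and genes in gap sequence moved no value. Widening genes by 2 kb put the median distance at 52.2 kb and the share within 2 kb at 0%, by construction. Keeping regions of at least 10 CpG cytosines left 115, at a median distance of 12.6 kb, 45.4% in control, 74.7% in cKO, a difference of 23.4 points and a density of 14.5. Keeping differences of at least 25 points left 107, with a difference of 30.9 points, a density of 8.82 and 16.8% in noncoding genes. Keeping area statistics at or above the median of all gains left 92, at 44.7% in control and 72.1% in cKO, with a difference of 23.2 points and a density of 15.2. Added after the data were seen, counting all genes of unknown strand as facing by the 5′ end put the 3′ share at 46.6% (60.2% as reported), and by the 3′ end at 69.2%, and leaving out the stretch between Etaa1 and Meis1 moved no value. No paired analysis was possible because the table holds group means, which also bars leaving out a library. Depth is unknown, so the precision of a single level is too.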

Other observations

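On the X chromosome, which the rule left out, 6 of 167 CG regions outside protein-coding genes were gains (3.59%), with medians of 50.2% in control and 84.3% in cKO. The regions 25 bp from Rab9b, a small GTPase gene (13.4% to 32.8%), and 95 bp from Mbtps2, a membrane protease gene (12.3% to 31.5%), began low. Those 45.8 kb from Pls3 (40.9% to 78.1%) and 70.9 kb from Samt3 (59.6% to 92.2%) began at an intermediate level. Those near Spin2-ps1 (72.6% to 90.6%) and Gm16404 (79.5% to 90.4%) began high. The share of gains on the X and on the autosomes (0.719%) was not compared by a test.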
